A study of Mus musculus with 6 samples.

Results

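Cycling monocytes are here the cells of the deposited cell table that carry the reference label Monocytes, lie in cluster 5 of the authors' coarse clustering, and have an S or G2M phase call. They number 577 of the 69776 cells the authors kept, out of 3734 monocyte-labelled cells in cluster 5, whose other 3157 cells were called G1. A further 43 monocyte-labelled cells lie in other clusters and are no members. The S call was given to 115 members and the G2M call to 462. All 6 libraries came from marrow of C57Bl/6 mice aged 2 months, with no treatment, and held cells selected with microbeads for CD11b, the integrin encoded by Itgam. The femur group had 1 female library (femur replicate 1) and 2 male libraries, and its marrow was flushed from femurs and tibiae per the labels and from femurs per the study's methods. The mandible group had 3 male libraries, from jaws whose molars had been pulled and whose sockets were flushed as well. The number of mice behind a library is not stated, so the spread between libraries may be technical in part, and the selection for CD11b sets which marrow cells could be seen. Femur replicates 1, 2 and 3 held 34, 50 and 84 members, and mandible replicates 1, 2 and 3 held 63, 223 and 123.

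Monocytes form in marrow from dividing progenitors that pass through a proliferating monocyte stage before they leave for the blood. Classical monocytes carry Ly6C and the chemokine receptor CCR2, a part of them turns into Ly6C-low patrolling monocytes, and monocytes are also precursors of osteoclasts, the cells that resorb bone. A dividing cell first copies its DNA in S phase, with the replication enzymes, nucleotide synthesis and new histones this needs, and then runs the kinases, cyclins and spindle proteins of G2 and mitosis.

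The label was checked against its markers, which were present. A unique molecular identifier (UMI) marks 1 captured transcript. Of the members, 97.2% had at least 1 UMI of Ly6c2, 94.5% of F13a1, a transglutaminase subunit of monocytes, and 87.0% of Csf1r, the receptor for M-CSF. Mki67 and Top2a, the proliferation antigen and the topoisomerase of dividing cells, had a UMI in 90.6% and 79.9% of members. In B-lineage cells of cluster 6, which should lack the monocyte genes, the shares were 11.2% for Ly6c2, 3.73% for F13a1 and 1.05% for Csf1r, at a median depth of 3894.5 UMIs per cell against 14528 in members. Ly6c2 does not set members apart from other dividing cells, since 98.96% of the S and G2M cells of cluster 4 also had a UMI of it. After each cell was thinned to 3000 UMIs, Mki67 was seen in 77.8% of members and 3.07% of G1 monocytes, and Top2a in 66.1% and 2.05%. These 2 genes are in the list behind the phase call, so their levels describe the selection. Csf1r was seen in 37.6% of members and 71.3% of G1 monocytes after the same thinning. Kit, the receptor of early progenitors, had a UMI in 1.39% of members and in 37.8% of those cells of cluster 4, a dividing cluster whose cells had a median of 41.7% of UMIs from a list of neutrophil genes.

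Members held 515005 to 2946593 UMIs per library, with medians of 13004 to 19656 UMIs per cell. No barcode occurred in more than 1 library among the members, while 13 members shared a barcode with a kept cell of another library. In 39 members the higher of the phase scores lay under 0.1, and 297 of the G1 monocytes lay within 0.1 below 0. A list of 15 neutrophil genes made up 4.06%, 4.12% and 7.25% of members' UMIs in femur replicates 1, 2 and 3 and 1.98%, 2.00% and 2.47% in mandible replicates 1, 2 and 3. Most of this came from 56 members with over 5% of their UMIs in that list, which numbered 7, 9 and 13 in the femur libraries and 3, 11 and 13 in the mandible libraries. Without them the shares were 0.472%, 0.735% and 1.10% in femur and 0.367%, 0.471% and 0.510% in mandible. Calls between sites that these cells carry or that end without them are named as such.

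The abundance of cycling monocytes at each site was compared over libraries. The share of monocytes in cycle was 6.97%, 6.48% and 13.7% in femur replicates 1, 2 and 3, and 10.3%, 33.5% and 21.0% in mandible replicates 1, 2 and 3. Exact 95% binomial intervals, which cover counting error only, ran from 4.84% to 8.45% in the lowest library (femur replicate 2) and from 30.0% to 37.3% in the highest (mandible replicate 2). Mandible replicates 2 and 3 stood above every femur library, but mandible replicate 1 lay below femur replicate 3, so the groups overlapped. The means were 9.04% ± 4.03 (SD, n = 3) in femur and 21.6% ± 11.6 (SD, n = 3) in mandible, a difference of 12.6 percentage points that did not pass a 2-sided exact permutation test (p = 0.2; the smallest p of this design is 0.1). The difference was 6.64 points without mandible replicate 2. Counted as monocytes with a Top2a UMI after thinning to 3000 UMIs it was 8.22 points, and with a Mki67 UMI 9.45 points (p = 0.2 each, exact permutation). Over all cells of cluster 5, whatever their label, it was 7.24 points (exact permutation p = 0.4), with mandible replicate 1 at 9.87% below femur replicates 1 and 3. Femur and mandible libraries that carry the same library number differed in the same direction, by 3.85 points for number 6 and 19.9 points for number 7.

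As a share of all kept cells, cycling monocytes made up 0.332%, 0.431% and 0.368% in femur replicates 1, 2 and 3. In mandible replicates 1, 2 and 3 they made up 0.733%, 2.55% and 1.58%. Every mandible library lay above every femur library, with means of 0.377% ± 0.0501 and 1.62% ± 0.908 (SD, n = 3 each) and p = 0.1 by the exact permutation test, the smallest p that 3 against 3 libraries allow. Over the 3 comparisons of shares the adjusted p was 0.3 for each in the exact permutation test. The difference of 1.24 points was 0.782 points without mandible replicate 2. Monocytes as a whole made up 4.76%, 6.65% and 2.69% of kept cells in the femur libraries and 7.09%, 7.60% and 7.54% in the mandible libraries, so both the monocyte share and the cycling share of monocytes enter this value.

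The S share of cycling monocytes was 26.5%, 28.0% and 19.0% in femur and 12.7%, 19.7% and 19.5% in mandible. Mandible replicate 1 was lowest, and mandible replicates 2 and 3 lay above femur replicate 3, so the groups overlapped. The difference of -7.19 points (24.5% ± 4.79 against 17.3% ± 4.0, SD, n = 3 each) had p = 0.3 in the exact permutation test. It turned to 1.26 points without cells below 3000 UMIs, and to 4.15 points when phases were called again on cells thinned to 3000 UMIs. Of the 9 S cells of femur replicate 1, 6 lay below 3000 UMIs, and the median depth of those 9 cells was 1594 UMIs.

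**Figure D1:**
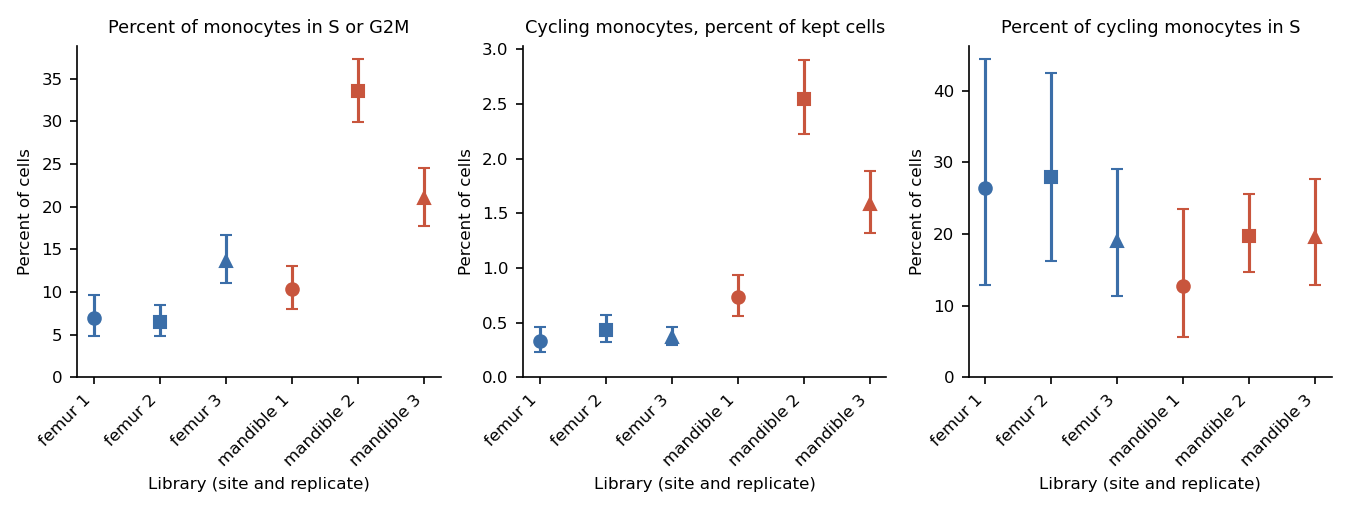
Percent of monocytes called S or G2M (left), cycling monocytes as a percent of all kept cells (middle) and percent of cycling monocytes called S (right), 1 point per library (blue femur, red mandible), with bars for the exact 95% binomial interval. In the middle plot the mandible libraries, at 0.733% to 2.55%, all lie above the femur libraries, at 0.332% to 0.431%, while the groups overlap in the other plots.

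What cycling monocytes held beyond the phase genes was described against the G1 monocytes of the same library. Levels are given as CPM, the UMIs of a gene scaled by the UMIs of all summed cells of the library, and ratios as log2 of (CPM + 10) in cycling over G1. The clustering and the phase call used these cells' genes, so no test was made. Of 6813 genes with a mean of at least 20 CPM in either, 374 (5.49%) were higher by over 2-fold in all 6 libraries and 160 (2.35%) were lower by over 2-fold in all 6, together 7.84%. Outside the phase lists the largest differences were in Pclaf, a PCNA partner at the replication fork, at 470 to 690 CPM in cycling and 3.39 to 14.4 CPM in G1 monocytes (mean log2 ratio 5.15 ± 0.39, SD, n = 6), and in Stmn1, a microtubule regulator (5.08 ± 0.58). Hist1h1b, Hist1h2ap, Hist1h2ae and Hist1h2ab, which are histone genes, followed with mean log2 ratios of 4.27 to 4.74. Prc1 of the midzone spindle, the histone variant gene H2afx, the kinetochore scaffold Knl1 and the cyclin Ccna2 were at 4.32, 4.18, 4.14 and 4.13.

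The lists of the division cycle were among the highest. All 32 mitotic genes outside the phase lists were past 2-fold in all 6 libraries, with a median log2 ratio of 2.99. Of 25 replication-dependent histone genes at this level 19 were (median 2.13), as were 15 of 21 replication genes (median 1.65). Histone transcripts mostly lack the poly(A) tail that this library type captures, and their near-identical copies can share reads, so single histone genes are uncertain. Nucleotide synthesis stood at a median of 0.92, with 5 of 12 genes past 2-fold, below the neutrophil list (1.42 ± 0.83, SD over 6 libraries, and -0.14 without the neutrophil-rich members) and the progenitor list (1.18). Among the nucleotide synthesis genes were Dut (2.90) and Tk1 (2.29), which make precursors of thymidine nucleotides. The 37 proteasome genes were at a median of 0.37, and none was past 2-fold in all 6 libraries. With the 12 sums scaled by TMM in place of plain CPM, the median over all genes moved by -0.05, and 358 genes were higher and 181 lower.

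Monocyte identity genes did not move as a block. Of 18 classical monocyte genes 9 were lower and 5 higher in cycling cells in all 6 libraries (median log2 ratio -0.37), and 29.4% of all 6813 genes were lower in all 6. Csf1r measured 163 CPM in cycling and 478 CPM in G1 monocytes, and it was 159, 157 and 167 CPM in the cycling cells of the femur libraries and 166, 160 and 168 CPM in those of the mandible libraries. These 6 values lay closer together than those of any other marker named here. F13a1 was higher in cycling cells (2119 against 1354 CPM), as were Fn1, which encodes fibronectin (1583 against 1203 CPM), and Ly6c2 (mean log2 ratio 0.56 ± 0.17). Ccr2 was lower (910 against 1361 CPM). In the dividing cells of cluster 4 Csf1r, F13a1, Fn1 and Ccr2 measured 6.19, 10.0, 4.04 and 5.08 CPM, while Ly6c2 measured 763 CPM there, against 2451 CPM in cycling monocytes. Irf8, the transcription factor that directs progenitors to the monocyte branch, was at 5.95 CPM in cluster 4 against 295 CPM in cycling monocytes.

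Genes of granule proteins made in myeloid progenitors had more UMIs in cycling than in G1 monocytes. Elane, neutrophil elastase, had a mean of 237 CPM against 7.37 CPM in G1, Prtn3, proteinase 3, 331 against 29.7 CPM, and Mpo, myeloperoxidase, 47.5 against 2.72 CPM. Elane ranged from 50.7 CPM in mandible replicate 1 to 338 CPM in femur replicate 1, where 2 of 34 cells held 96.0% of its UMIs. The cells with the most Elane held less in the other libraries, down to 23.2% for the top 2 cells of mandible replicate 2. Mpo had a UMI in 8.82% to 12.2% of members, and in femur replicate 1 a lone cell held 24 of its 26 UMIs. Prtn3 was more widespread, with a UMI in 35.3% to 74.9% of members per library. Over the 11 measured genes of the progenitor list the median log2 ratio was 1.18, with 3 past 2-fold higher in all 6 libraries and 1, Hpgd, a prostaglandin-degrading enzyme, past 2-fold lower (-3.21 ± 0.54). Over all genes these shares were 5.49% and 2.35%. By sign alone, 7 of the 11 were higher and 3 lower in all 6 libraries. The list's share of UMIs without the 56 neutrophil-rich members was 0.113% to 0.182%, against 0.115% to 0.201% with them. Flt3, Cd34, Kit and Gfi1, genes of early progenitors, had means of 6.07, 1.40, 1.36 and 1.12 CPM in cycling monocytes.

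Genes of mature and activated monocytes were lower. The share of all genes that were lower in all 6 libraries, 29.4%, applies to the counts that follow. MHC class II genes had the lowest median (-3.43), with H2-Ab1 at -3.96 ± 1.84 (SD, n = 6), the invariant chain Cd74 at -3.87 ± 1.53, H2-Aa at -3.61 ± 1.61 and H2-Eb1 at -3.53 ± 1.61. Markers of other cells that carry MHC class II moved with them, with the 2 measured dendritic genes lower in all 6 libraries (median -1.21) and 4 of 6 macrophage genes (median -0.84), and their part in the result was not tested. H2-Ab1 in cycling cells was at 13.6, 6.29 and 227 CPM in the femur libraries and 1.75, 49.5 and 140 CPM in the mandible libraries, while in G1 monocytes it was at 398 to 1306 CPM in all 6. Femur replicate 3 and mandible replicate 3 were the high libraries, 1 at each site. Of 16 patrolling monocyte genes 14 were lower in all 6 libraries (median -1.59), with Ace, the angiotensin-converting enzyme, at -3.08 ± 0.55, the adhesion receptor Adgre4 at -3.04 ± 0.44 and Nr4a1, the nuclear receptor that these cells depend on, at -2.07 ± 0.19. Gngt2 and Abi3, a G protein subunit and an actin regulator, were at -2.99 and -2.63, and Apoe, an apolipoprotein, at -3.15 ± 0.79. Of 21 interferon response genes 20 were lower in all 6 (median -1.14), and of 18 inflammatory cytokine and NF-kB target genes 15 were (median -0.77), with Nfkbiz at -1.34 and Ccl6 at -1.09. Osteoclast precursor genes had a median of -0.52, with 9 of 11 lower in all 6 libraries. Tnfrsf11a, the receptor for RANKL, had a UMI in 17.5% of cycling and 16.7% of G1 monocytes as counted.

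**Figure D2:**
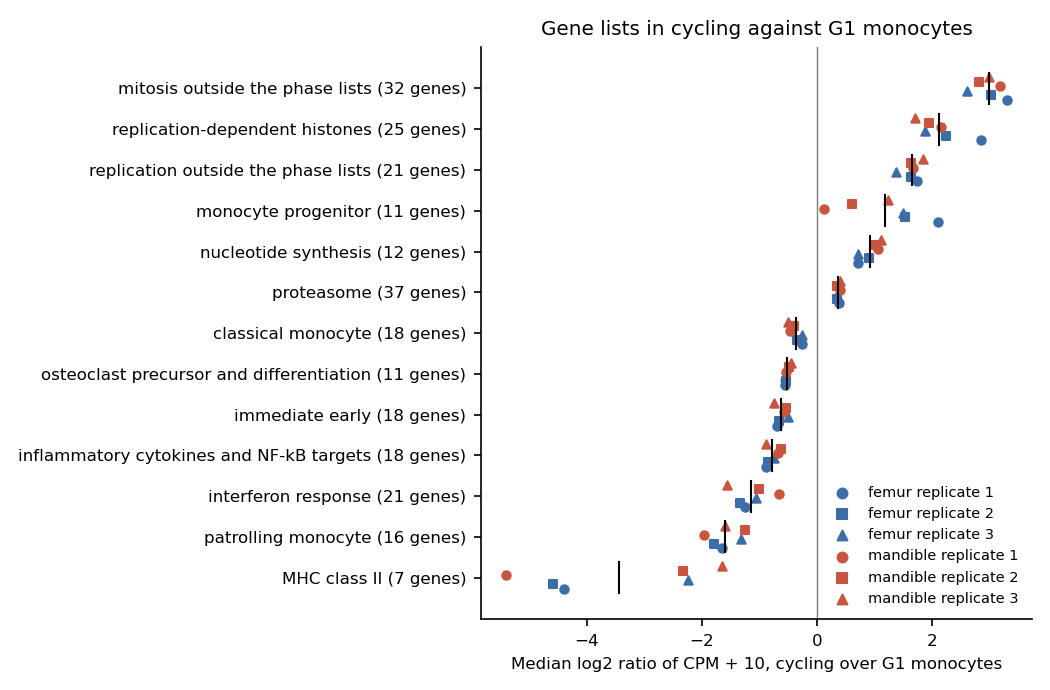
Median log2 ratio of CPM + 10 in cycling over G1 monocytes for the genes of each list, 1 point per library (blue femur, red mandible), with a black bar for the mean over the 6 libraries. Of the 13 lists plotted, none of them a phase list, mitotic genes are highest at 2.99 and MHC class II genes lowest at -3.43, where the libraries also spread the most.

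Members differed among themselves by phase. Of 6834 genes with a mean of at least 20 CPM in either, 15 (0.219%) were higher in S by over 2-fold in all 6 libraries and 49 (0.717%) were higher in G2M. The count for S was 29 without femur replicate 1 and 30 without mandible replicate 1, the libraries with the fewest S cells (9 and 8). Outside the phase lists, S cells had more Lig1, the DNA ligase of Okazaki fragments, at 357 CPM against 85.7 CPM in G2M cells (mean log2 ratio 1.88 ± 0.42, SD, n = 6). Lpl, a lipase, Apoe and Pparg, a lipid-sensing nuclear receptor, were also higher in S than in G2M, at 2.19 ± 0.98, 2.12 ± 0.89 and 2.01 ± 1.21, with wider spreads than the replication genes. Unlike Lig1, these 3 had their highest mean in G1 monocytes. Means in G1, S and G2M cells were 118, 99.9 and 11.5 CPM for Lpl and 1731, 783 and 119 CPM for Apoe. For Pparg they were 133, 63.5 and 5.10 CPM. The macrophage list had a median log2 ratio of 1.58 ± 1.96 (SD, n = 6), from -0.07 to 4.29 per library, with 1 of 8 measured genes higher in S in all 6 libraries. Of all genes measured here and against G1, 350 of 6502 were higher in S in all 6. Of the 19 members below 3000 UMIs 14 were S cells. In 25 of the 115 S cells the higher phase score lay under 0.1, among them 6 of 9 in femur replicate 1 and 7 of 14 in femur replicate 2. The part of these in the values was not tested. G2M cells had more Ccnb1, a B-type cyclin (-2.70 ± 0.51), the spindle pole gene Aspm (-2.63 ± 0.63), the mitotic kinase Plk1 (-2.48 ± 0.44), the phosphatase Cdkn3 (-2.40 ± 0.43) and the cytokinesis kinesin Kif20a (-2.28 ± 0.50).

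Some monocyte genes also differed by phase. Of 18 classical monocyte genes, 5 were higher in G2M than in S cells in all 6 libraries, and none was higher in S in all 6. Klf4, a transcription factor of classical monocytes, was at 174, 190 and 130 CPM in S cells of the femur libraries and 316, 387 and 220 CPM in those of the mandible libraries. In G2M cells it was at 404 to 652 CPM, above the S value of the same library in each case. Fn1 was at 389 to 1436 CPM in S and 1302 to 2360.1 CPM in G2M cells. Replication-dependent histone genes were higher in G2M than in S cells by the deposited call (median -0.88, 15 of 25 higher in G2M in all 6 libraries, none higher in S), against 14.1% of all 6834 genes higher in G2M in all 6. That call goes by the higher of the phase scores, and 288 of the 462 G2M cells had an S score under 0.1. The other G2M cells also scored for S, so the order of histone levels over the cycle cannot be read from this.

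**Figure D3:**
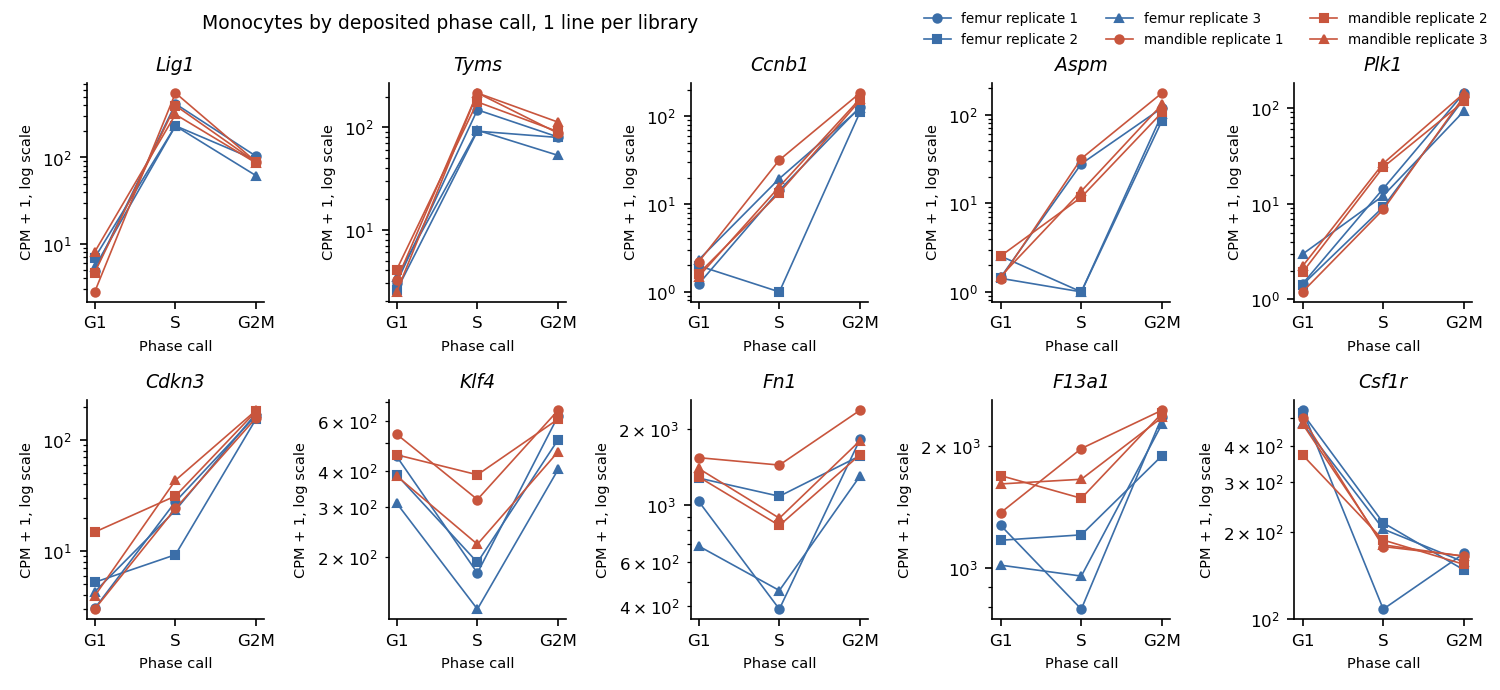
Levels of 10 genes in monocytes called G1, S and G2M, as CPM + 1 on a log axis, 1 line per library (blue femur, red mandible). Lig1 peaks in S, as Tyms does by its part in the S score, Ccnb1, Aspm, Plk1 and Cdkn3 in G2M, Klf4 and Fn1 are lower in S than in G2M in every library, and Csf1r is lower in G2M than in G1 in every library.

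The promoters of the genes with the largest G2M excess are shown because textbook work ties the CCAAT box and the TTTGAA element to genes of G2 and mitosis, and all 4 matched promoters held the CCAAT box. Windows ran from 250 bases before to 50 bases after each start in RefSeq (GRCm38.p6). Both strands were searched for CCAAT, for TTTGAA, and for the E2F-type words TTTGGCGC, TTTCCCGC or TTTCGCGC. Among 27025 genes of the table, 41.1% held CCAAT, 20.2% TTTGAA and 2.12% an E2F-type word. Of the 5 genes highest in G2M 4 were matched, and 4 held CCAAT, 3 TTTGAA and 0 an E2F-type word. Of the 5 genes highest in S 3 were matched, of which 1 held CCAAT, 2 TTTGAA and 1, Lig1, an E2F-type word. The sequences below are the 250 bases before the start, 5′ to 3′ on the gene's strand, with CCAAT (or ATTGG, its reverse complement) and TTTGAA (or TTCAAA) in capitals. They lie at chr13:100786487-100786736 on the minus strand for Ccnb1, and on the plus strand at chr1:139454523-139454772 for Aspm, chr7:122159185-122159434 for Plk1 and chr14:46760291-46760540 for Cdkn3.
Ccnb1: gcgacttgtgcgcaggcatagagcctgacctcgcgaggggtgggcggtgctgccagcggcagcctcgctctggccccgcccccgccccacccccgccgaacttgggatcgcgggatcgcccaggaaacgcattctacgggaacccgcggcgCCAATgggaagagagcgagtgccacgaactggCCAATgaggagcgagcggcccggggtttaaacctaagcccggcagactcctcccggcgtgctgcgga
Aspm: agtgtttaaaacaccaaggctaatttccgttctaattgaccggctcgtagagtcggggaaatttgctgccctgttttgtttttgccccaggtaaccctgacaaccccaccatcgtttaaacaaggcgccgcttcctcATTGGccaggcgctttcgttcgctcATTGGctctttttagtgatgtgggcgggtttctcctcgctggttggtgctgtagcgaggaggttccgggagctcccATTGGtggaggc
Plk1: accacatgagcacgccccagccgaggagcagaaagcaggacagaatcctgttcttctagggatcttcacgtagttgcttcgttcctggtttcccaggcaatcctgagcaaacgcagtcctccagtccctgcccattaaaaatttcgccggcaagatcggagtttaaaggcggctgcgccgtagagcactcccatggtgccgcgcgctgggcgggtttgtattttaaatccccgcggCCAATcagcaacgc
Cdkn3: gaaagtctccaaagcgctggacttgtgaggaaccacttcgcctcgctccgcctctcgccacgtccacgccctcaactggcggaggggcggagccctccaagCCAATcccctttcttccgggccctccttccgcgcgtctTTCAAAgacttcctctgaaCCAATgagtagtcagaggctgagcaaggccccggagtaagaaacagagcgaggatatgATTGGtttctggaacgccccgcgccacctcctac
Ccnb1 held CCAAT at 99 and 67 bases before the start, and Plk1 at 14 bases before it. Aspm and Plk1 held their TTTGAA after the start, outside the bases shown. Cdkn3 held CCAAT at 149, 92 and 34 bases before the start and TTTGAA, read on the other strand, at 111. A match of letters is a description and no binding site.

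Between the sites, 8523 genes were tested in the summed counts of cycling monocytes. With edgeR's quasi-likelihood test and Benjamini-Hochberg adjustment at a false discovery rate of 0.05, 40 genes passed (0.469% of those tested), 39 lower in mandible (0.458%) and 1 higher (0.0117%), and 629 genes (7.38%) had an unadjusted p under 0.05. DESeq2 called 27, of which 22 were among the 40. The number was 15 without mandible replicate 2, 7 without the 56 neutrophil-rich members, and 32, with 28 of the 40 kept, without femur replicate 1, the only female library. Genes whose femur and mandible libraries did not overlap made up 12.9% of those tested, 4.26% lower in mandible and 8.67% higher. The markers of the population did not pass, with log2 fold changes, mandible over femur, of -0.03 for Csf1r, 0.08 for Ly6c2, 0.16 for F13a1, -0.01 for Top2a, 0.03 for Mki67, -0.22 for Itgam and 0.11 for Tnfrsf11a. Ly6c2 was at 2339.8, 2605 and 2080.4 CPM in femur and 2650.3, 2771 and 2259 CPM in mandible. F13a1 was at 2130.1, 1786 and 1980.0 CPM in femur and 2393, 2229.7 and 2192 CPM in mandible. Of these genes, which mark classical monocytes, F13a1 did not overlap between sites and Ly6c2 did. Top2a was at 1252, 916 and 869 CPM in femur and 1175, 1063 and 855 CPM in mandible. Mki67 was at 767, 759 and 692 CPM in femur and 878, 653 and 819.6 CPM in mandible. Both overlapped between sites, as did the integrin gene Itgam, at 293, 264 and 272 CPM in femur and 294, 223 and 224 CPM in mandible, and Tnfrsf11a, at 15.5, 10.1 and 18.5 CPM in femur and 14.0, 12.2 and 24.7 CPM in mandible.

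Complement C1q genes had the largest differences. They encode the chains of C1q, a product of tissue macrophages, and lie side by side on chromosome 4 (mm10, 136880129 to 136898803). C1qa was at 66.0, 50.4 and 70.7 CPM in femur replicates 1, 2 and 3 and at 0.874, 1.36 and 0.95 CPM in mandible replicates 1, 2 and 3. All femur libraries lay far above all mandible libraries, and the log2 fold change was -5.75 ± 0.36 (adjusted p = 1.41e-08, edgeR). Here and for other edgeR fold changes, the value after ± is an approximate SE worked back from the test's F statistic. It is no fitted standard error. C1qb and C1qc fell by 4.95 each on the log2 scale, with 0 UMIs of either in mandible replicate 1. These UMIs sat in few cells: the 34, 40 and 88 C1qa UMIs of the femur libraries came from 5, 3 and 2 cells, and the 1, 4 and 2 of the mandible libraries from 1, 3 and 2 cells. In femur replicate 2 all 40 came from cells below 3000 UMIs, and with those cells left out C1qa no longer had enough counts to be tested. Without the neutrophil-rich members C1qa remained lower (-6.39, adjusted p = 6.02e-08, edgeR).

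Other macrophage genes went the same way. Axl, a receptor for dying cells, was at 17.5, 23.9 and 20.1 CPM in femur and at 0.874, 4.41 and 1.90 CPM in mandible, without overlap (-2.89 ± 0.44, adjusted p = 0.00216, edgeR). In femur replicate 2, cells below 3000 UMIs held 73.7% of its UMIs, and with those cells left out of all libraries Axl, C1qb and C1qc had too few counts to be tested. Slc40a1, the iron exporter ferroportin, fell by 2.64 on the log2 scale (adjusted p = 0.00903, edgeR), with femur replicate 1 highest at 58.3 CPM. It did not pass with cells of at least 3000 UMIs (-1.89, adjusted p = 0.154, edgeR) and had too few counts to be tested without the neutrophil-rich members. Of the 6 macrophage markers tested, out of 10 in the list, 5 fell, and Adgre1, which encodes F4/80, did not pass (-0.25, adjusted p = 0.850, edgeR). The 5 that fell reached the count filter through the femur libraries alone, where they are high. Their share of the tested genes is therefore set in part by that filter. The summed list was at 439, 322 and 310 CPM in the femur libraries and 107, 81.1 and 81.2 CPM in the mandible libraries. With cells of at least 3000 UMIs its share of UMIs in femur replicate 2 went from 0.0322% to 0.0119%, next to 0.0107% in mandible replicate 1. In femur replicates 1 and 3 it was then 0.0305% and 0.0310%, and in mandible replicates 2 and 3 it was 0.00812% and 0.00815%. The part of cells below 3000 UMIs in the result was not tested. In G1 monocytes C1qb and C1qc also fell, by 2.33 and 2.35 on the log2 scale (adjusted p = 0.0266 and 0.0252, edgeR), while C1qa (-2.25, adjusted p = 0.126), Slc40a1 (-1.92, adjusted p = 0.181) and Axl (-0.87, adjusted p = 0.237) did not pass.

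Apoe was at 200, 550 and 316 CPM in femur and at 125, 91.3 and 73.6 CPM in mandible. The groups did not overlap, and femur replicate 2 was highest (-1.97 ± 0.26, adjusted p = 0.000738, edgeR). Without the neutrophil-rich members femur replicate 3 was at 67.0 CPM, within the range of the mandible libraries (40.2 to 113 CPM), and the difference no longer passed (-1.84, adjusted p = 0.257, edgeR). Treml4, a receptor of patrolling monocytes and macrophages, was at 25.2, 18.9 and 17.7 CPM against 4.37, 3.73 and 3.33 CPM (-2.44 ± 0.37, adjusted p = 0.00242, edgeR), and Adgre4 fell by 1.33 on the log2 scale. These were the 2 that fell of 11 patrolling monocyte genes tested, of which 9 were below 0 (median -0.57). Treml4 reached the count filter through the femur libraries alone, where it is high, so these counts are set in part by that filter. Without the neutrophil-rich members 0 of 8 passed edgeR's test (median -0.27), Adgre4 was at -1.08 (adjusted p = 0.611, edgeR) and Treml4 had too few counts to be tested. Fcgr4, Cd63 and Cd81, an Fc receptor and 2 tetraspanins, fell by 1.97, 1.89 and 1.82. Cd81 also reached the count filter through the femur libraries alone. Without the neutrophil-rich members Cd81 did not pass (adjusted p = 0.0785, edgeR), nor did it with cells of at least 3000 UMIs (adjusted p = 0.0704, edgeR). Fcgr4 and Cd63 passed with cells of at least 3000 UMIs (adjusted p = 0.0355 and 0.00443, edgeR) and had too few counts to be tested without the neutrophil-rich members. Among called falls without overlap at a mean of 10 CPM or more, the remaining members of the 10 largest were Aff2 and Cpa6 (-2.70 each) and BE692007 (-2.03). All 3 reached the count filter through the femur libraries alone, where they are high. The neutrophil-rich members held 73.9% to 100% of Aff2 UMIs and 70.0% to 94.6% of Cpa6 UMIs in the femur libraries, and without them these 3 genes had too few counts to be tested.

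Several genes of the neutrophil list were lower in mandible. Camp, an antimicrobial peptide, was at 4538, 4164 and 7360 CPM in femur and at 1489, 1654 and 1994 CPM in mandible (-1.71 ± 0.21, adjusted p = 0.000349, edgeR). S100a8, a calcium-binding alarmin, was at 14235, 15542 and 26990.4 CPM in femur and 7533, 7469 and 9714 CPM in mandible. It fell by 1.27 on the log2 scale (adjusted p = 0.0145, edgeR), but not with DESeq2 or without mandible replicate 1 or mandible replicate 2, and its partner S100a9, at 16413, 15176 and 27499.7 CPM in femur and 7705, 7659 and 8880.0 CPM in mandible, fell by 1.35. Neither gene overlapped between sites. Of the 14 neutrophil genes tested, out of 15 in the list, 8 fell, with Ngp, Ltf, Lcn2, Fcnb and Cd177 the others (-1.47 to -1.04), and 11 were below 0 (median -1.08). In the 6 libraries 89.1% to 95.9% of Camp UMIs sat in the neutrophil-rich members. These members were chosen by the UMIs of this same list. That its genes sit in them and have lower levels without them follows from the choice. Without the neutrophil-rich members, Camp was at -0.95 (adjusted p = 0.430, edgeR), Fcnb at 0.01, and Ltf (-1.35) and Ngp (-1.07) were the ones that still fell. S100a8, S100a9 and Lcn2 were at -0.83, -0.85 and -0.81 and did not pass, and 11 of 12 tested genes of the list were below 0 (median -0.75). The study names S100a8 and S100a9 for cluster 5 from these same libraries, so their direction here is no independent evidence.

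The only gene that rose was Egr1, an immediate early transcription factor, at 21.4, 89.4 and 27.3 CPM in femur and 172, 169 and 86.5 CPM in mandible. Mandible replicate 3 lay just below femur replicate 2, so the groups overlapped (1.56 ± 0.34, adjusted p = 0.0457, edgeR). It did not pass without femur replicate 1, femur replicate 3, mandible replicate 1 or mandible replicate 2 (adjusted p up to 0.260, edgeR), without the neutrophil-rich members (1.55, adjusted p = 0.260, edgeR) or with DESeq2. With cells of at least 3000 UMIs it also did not pass (adjusted p = 0.0743, edgeR), and its call held in 6 of 16 alternatives. Of the other genes that the study names for cluster 5 in these libraries, none passed upward, with Ccl3 at 1.07 (adjusted p = 0.209, edgeR), Junb at 0.48, Nr4a1 at 0.20 and Klf4 at 0.19. That outcome held for Ccl3 in 11 of 15 alternatives that tested it, for Junb in 14 of 16, for Nr4a1 in 15 of 15 and for Klf4 in 15 of 16. In the remaining alternatives Ccl3, Junb and Klf4 passed upward. The chemokine gene Ccl3 was at 64.1, 47.8 and 25.7 CPM in femur and 123, 107 and 49.9 CPM in mandible. Junb, an AP-1 subunit, was at 359, 315 and 266 CPM in femur and 553, 508 and 279 CPM in mandible. These and the next pair of genes overlapped between sites. Nr4a1 was at 60.2, 44.1 and 36.1 CPM in femur and 70.8, 47.9 and 46.1 CPM in mandible. Klf4 was at 557, 465 and 345 CPM in femur and 614, 565 and 411 CPM in mandible. All 18 immediate early genes tested were above 0 (median 0.29), Fosb at 0.97 and Jun at 0.01 among them, while 4290 of all 8523 genes were above 0 (median 0.00). Egr1, Junb, Nr4a1 and Klf4 are in this list. Only 1 of the 18 was higher without overlap, against 8.67% of all genes tested. The summed list was at 5140, 3866 and 3260 CPM in femur and 6597, 5703 and 3585 CPM in mandible, so the groups overlapped. Without the neutrophil-rich members 17 of 18 were above 0 (median 0.26). In G1 monocytes the median of this list was 0.28, and Egr1 was at 1.73 (adjusted p = 0.147, edgeR). The heat shock gene Hspa1b went the other way, at 77.7, 29.0 and 135 CPM in femur and 15.7, 33.6 and 3.80 CPM in mandible, with overlap (-2.20, adjusted p = 0.0457, edgeR). It did not pass without femur replicate 1, femur replicate 3, mandible replicate 1 or mandible replicate 3, without the neutrophil-rich members or with DESeq2, and its near-identical copy Hspa1a can share its reads.

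Among genes without overlap, the rises with the lowest p did not pass. Pim1, a serine/threonine kinase downstream of cytokine receptors, was at 120, 79.3 and 120 CPM in femur and 185, 206 and 164 CPM in mandible (0.74 ± 0.17, adjusted p = 0.0713, edgeR). Each mandible library lay above each femur library. Tyms, the thymidylate synthase, is also among these, but it is in the S list behind the phase call, so its levels (89.3, 80.6 and 61.0 CPM in femur, 101, 106 and 135 CPM in mandible) only describe the selected cells. Tusc1 was at 0.82, the acetyl-CoA carboxylase gene Acaca at 0.72 and Pigt, of the machinery that attaches membrane anchors, at 0.63. Pim1 stayed short of the threshold in 12 of 16 alternatives and Tusc1 in 14 of 15, and both passed upward in the rest. Acaca and Pigt stayed short of it in 15 of 15.

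**Figure D4:**
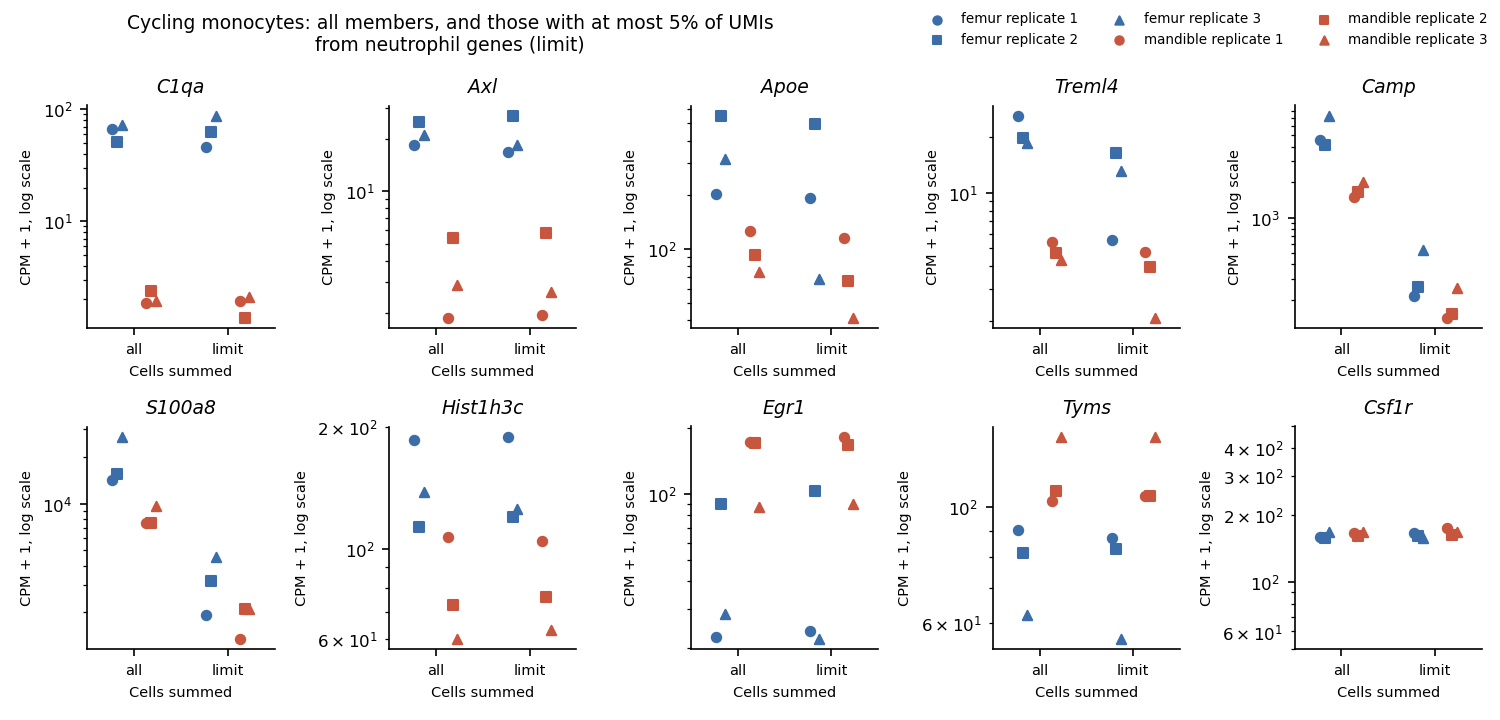
Levels of 10 genes in cycling monocytes as CPM + 1 on a log axis, 1 point per library (blue femur, red mandible), over all members (all) and over members with at most 5% of UMIs from neutrophil genes (limit). C1qa and Axl stay apart between sites in both sums, Camp and S100a8 drop at both sites when the neutrophil-rich cells are left out, and Csf1r lies between 157 and 168 CPM over all members. Camp and S100a8 are in the list that chose those cells, so their drop follows from the choice.

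The S phase machinery showed 2 opposite patterns of sign, neither of which rested on many genes past the threshold. All 15 nucleotide synthesis genes tested were above 0 in mandible (median 0.37, none past the threshold, 4 with an unadjusted p under 0.05), with Mthfd1 of the folate cycle at 1.18, the nucleotide pool cleaner Dctpp1 at 0.61 and Dut at 0.32. Dctpp1 was at 46.6, 55.4 and 44.2 CPM in femur and 58.5, 85.2 and 82.7 CPM in mandible, without overlap. Of 23 replication genes outside the phase lists 16 were above 0 (median 0.17). The phase lists chose the members, so their signs are not read here. Replication-dependent histones had the other sign, with 25 of 26 below 0 (median -0.48) and 13 with an unadjusted p under 0.05. Over all genes tested, 7.38% had an unadjusted p under 0.05. Of the histone genes Hist1h3c fell, at 184, 112 and 137 CPM in femur and 106, 71.6 and 58.9 CPM in mandible (-0.94 ± 0.20, adjusted p = 0.0424, edgeR). It passed by a narrow margin, and not without femur replicate 1, femur replicate 3, mandible replicate 2 or mandible replicate 3. It also did not pass without the neutrophil-rich members (adjusted p = 0.239, edgeR) or with cells of at least 3000 UMIs (adjusted p = 0.0600, edgeR). Hist1h3b, Hist1h4c and Hist1h1e, at -0.93, -0.76 and -0.63, did not pass. The summed histone list was at 9647, 7772 and 5013 CPM in femur and 6700, 5017 and 5484 CPM in mandible, so the groups overlapped. Without the neutrophil-rich members, the counts were 14 of 15 nucleotide synthesis genes above 0 (median 0.41) and 25 of 26 histones below (median -0.49).

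Other lists had few calls. Of 18 interferon response genes 16 were below 0 (median -0.26), and Oasl2, an interferon-induced gene, fell by 1.03 on the log2 scale (adjusted p = 0.0400, edgeR). It passed in 5 of 15 alternatives that tested it, and not without the neutrophil-rich members (-0.91, adjusted p = 0.317, edgeR). Mitochondrially encoded genes were below 0 in 11 of 13 (median -0.27), with sums of 14514.5 to 26776 CPM in femur and 18775 to 23450 CPM in mandible and the lowest value in femur replicate 3. Proteasome genes were above 0 in 27 of 37 (median 0.10). No gene passed among 6 MHC class II, 12 progenitor, 18 classical monocyte and 10 osteoclast precursor genes tested, with medians of -0.48, -0.09, -0.01 and 0.01. Of other cell types' lists, 1 gene each of the B-lineage, dendritic and T and NK lists, 2 erythroid and 0 of 15 tooth and bone genes had enough counts to be tested, and none of these passed.

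**Figure D5:**
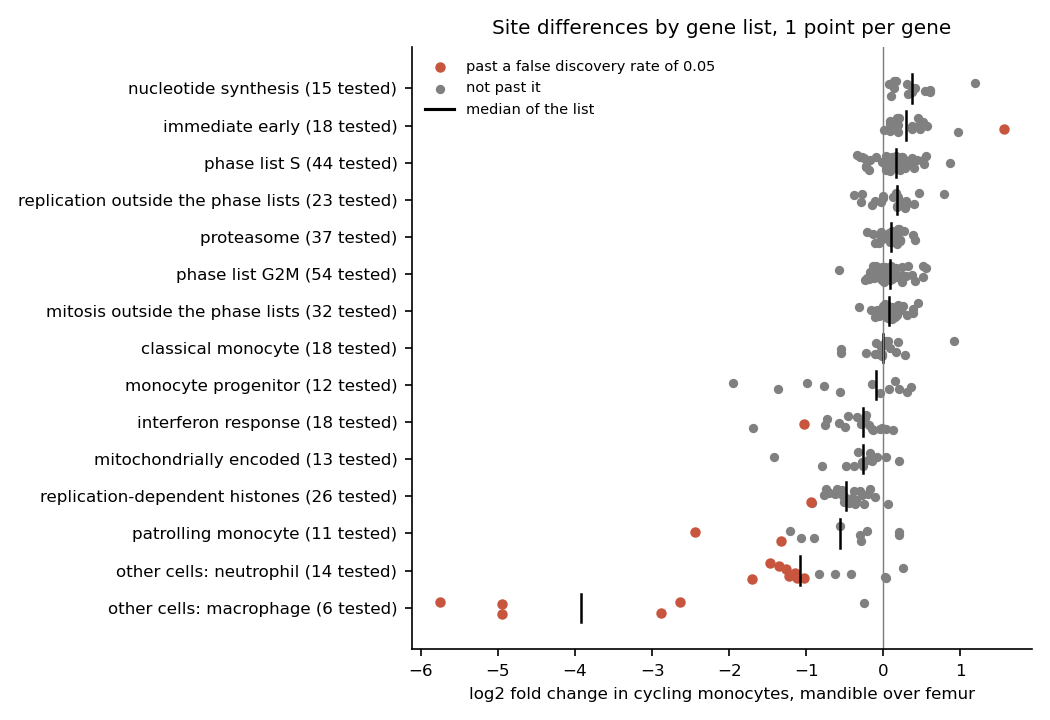
Log2 fold change, mandible over femur, in cycling monocytes for each tested gene of 15 lists, with genes past a false discovery rate of 0.05 in red and a black bar at each list's median. Nucleotide synthesis and immediate early genes all lie above 0, 25 of 26 histone genes below, and the calls include 5 of 6 macrophage and 8 of 14 neutrophil genes. The 5 called macrophage genes, and Treml4 of the patrolling list, reached the count filter through the femur libraries alone. Their share of the tested genes is therefore set in part by that filter.

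Whether the effect of site differed between cycling and G1 monocytes was tested with limma on each library's difference in log2 CPM, over 10852 genes. None passed a false discovery rate of 0.05 (0.00%), and 651 (6.00%) had an unadjusted p under 0.05. edgeR with a term for the library called 4. In G1 monocytes alone, 18 of 10659 genes (0.169%) passed edgeR's quasi-likelihood test between sites. Among genes at a mean of 20 CPM or more, the lowest p values toward a smaller cycling excess in mandible were those of Cd177, a neutrophil surface protein (-1.06 ± 0.17), Fcnb, a ficolin of granules (-1.62), and Abca13, a transporter (-1.88). The other way they were those of Ddhd1 (0.68), H2-DMb1 (0.68) and the condensin gene Smc2 (0.90). Adjusted p values of these genes ran from 0.172 to 0.551 (limma). Treml4, at a mean of 12.2 CPM, was at -1.90 (adjusted p = 0.172, limma). Cd177 and Fcnb are in the neutrophil list, whose share in members is given above.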

How the data were processed

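Droplet 3′ single-cell RNA libraries of CD11b-selected marrow were made by the authors, 3 from femur and 3 from mandible. The deposited matrices hold raw UMI counts per gene and barcode from Cell Ranger (7.0.1 in the submitters' processing notes, 7.1.0 in the matrix headers) on mm10. Cells were retained by the authors at 600 to 6000 detected genes and up to 20 percent mitochondrial UMIs, and they normalized and integrated them in Seurat (R 4.1.0), with mitochondrial percent and the difference of the phase scores regressed out, clustered them and gave each a reference label. Of the barcodes in the matrices, 18.5% were not kept in femur replicate 1, against 1.88% to 5.14% in the other libraries. The deposited cell table gives each cell's UMI count, mitochondrial percent, S and G2M score, phase, cluster and other labels. A deposited list of cluster marker tests (fold changes and p-values) was not used.

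Members were matched to the matrices by barcode and their UMIs summed per library (515005 to 2946593 UMIs). Sites were compared with edgeR 4.0.16 (R 4.3.3), using TMM factors, filterByExpr, the quasi-likelihood test and Benjamini-Hochberg adjustment over all genes tested. The approximate SE of an edgeR fold change is the fold change divided by the square root of the test's F statistic. For shares, a 2-sided exact permutation test went through all 20 assignments of libraries, and the exact binomial intervals came from scipy 1.17.1. The difference of site effects used limma 3.58.1 applied to per-library differences of log2 CPM (prior count 2). Ratios within a library used CPM + 10 and no test. Alternatives used DESeq2 1.42.0, Seurat 5.3.0 for phase calls on thinned cells, and other cell and library sets. The doublet caller of scanpy 1.11.5 called 0, 0, 3862, 0, 0 and 1 cells in the 6 libraries and so did not work. In femur replicate 3 it called 17 of 84 members (20.2%) and 3.40% of G1 monocytes, against 16.9% of all kept cells of that library. Doublets were therefore not removed, and cells with over 5% of UMIs from neutrophil genes were left out as an alternative. Statistical steps were tested on simulated data. Gene positions are those of GENCODE vM21.

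Genes named are the population markers, Itgam, Tnfrsf11a and the genes the study names for cluster 5. Between sites, they are up to 10 of the largest calls in each direction without overlap at a mean of 10 CPM or more, or, where under 5 passed, the 5 of lowest p at 20 CPM or more. Within libraries they are the 10 largest cycling against G1 differences and the 5 largest S against G2M differences in each direction outside the phase lists, at 20 CPM or more. They also include the 3 lowest p values in each direction for the difference of site effects, at 20 CPM or more, and for each list its most abundant members and those that passed. A gene that this rule gives for S against G2M is not reported here. Other genes were named after their values were seen. Members and gene lists were chosen with earlier results of these data known.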

Additional observations from a re-analysis of the deposited data

Results flagged for a closer look

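Cd177, a neutrophil surface protein, moved in opposite directions between cycling and G1 monocytes at the 2 sites. Its log2 CPM in cycling over G1 monocytes was above 0 in all 3 femur libraries (0.457, 0.457 and 0.659) and below 0 in all 3 mandible libraries (-0.696, -0.749 and -0.148). The difference of the differences, mandible minus femur, was -1.06 and did not pass limma's test (adjusted p = 0.172). It passed with the replicate block on the title number (adjusted p = 0.0307, limma) and in edgeR with a library term (adjusted p = 0.0193). With the block on the library number in 4 libraries the difference was -1.27. Its p is left out, since so few libraries leave almost no spread to measure. The difference passed in none of the other alternatives run (adjusted p from 0.0593 to 0.980, limma). Cd177 is in the neutrophil list, which made up 4.06% to 7.25% of members' UMIs in femur and 1.98% to 2.47% in mandible. Without the members over 5% of UMIs in that list the difference of the differences was -0.64 (adjusted p = 0.856, limma), and Cd177 between sites in cycling monocytes was -0.62 (adjusted p = 0.819, edgeR's quasi-likelihood test) against -1.04 with them.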

How the results depend on the processing

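The count of 40 genes between sites was 157 with no filter on low counts, 16 with S cells, 10 with G2M cells, 7 without the neutrophil-rich cells, 19 with equal cells per library, 24 with cells of at least 3000 UMIs, and 15 (without mandible replicate 2) to 53 (without mandible replicate 3) when 1 library was left out. With the replicate block on the title number it was 76, and with that on the library number (4 libraries) 147. The library number block leaves almost no spread between libraries to measure, so its counts here are uncertain. Same-numbered libraries correlated at 0.108, -0.0929 and 0.0467, and those sharing library numbers 6 and 7 at 0.0629 and 0.187. These few values are of deviations from group means, so they cannot decide whether the samples were paired. The count of 0 for the difference of site effects became 4 and 85 under the title number and library number blocks, 4 with edgeR and a library term, and 0 to 1 when 1 library was left out. The S share difference reversed to 4.15 points with phases called again and to 1.26 points with cells of at least 3000 UMIs. Fcnb between sites (0.012) and the neutrophil list in cycling over G1 (-0.14) reversed without the neutrophil-rich cells, as did the macrophage list (0.34) with S cells. With S cells, 207 genes were higher and 72 lower by over 2-fold than in G1. The count higher in S than in G2M (15) was 16 to 30 when 1 library was left out. The causes were not tested. Alternatives without called doublets were not run, since the caller did not work. The alternatives on cells of at least 3000 UMIs, the TMM scaling, and, for the difference of site effects, the library number block and the neutrophil limit were chosen after seeing the data. The 8 to 44 S cells per library limit the depth of values by phase.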

Other observations

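Among cyclins, kinases, E2F factors and inhibitors, 8 of 22 measured genes were past 2-fold higher in cycling than in G1 monocytes in all 6 libraries (median log2 ratio 1.05). Of all genes 5.49% were. Foxm1, a transcription factor of mitotic genes, had 62.6 CPM against 0.85 CPM, and the inhibitor gene Cdkn2c 78.9 CPM against 5.77 CPM. Cdk6 and Rb1 were lower, at -0.48 and -0.41. Between sites none of 25 tested genes passed edgeR's quasi-likelihood test (median 0.07).

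Targets of p53 had a median log2 ratio of -0.18 in cycling over G1 monocytes, with 4 of 9 measured genes lower in all 6 libraries, against 29.4% of all genes. Pmaip1, which promotes cell death, was at 40.3 CPM in cycling and 101 CPM in G1 monocytes, while Cdkn1a, an inhibitor of cyclin-dependent kinases, was at 0.26. Between sites none of 11 tested genes passed edgeR's quasi-likelihood test (median -0.16).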
